A study of Drosophila melanogaster with 36 samples.

Results

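In fly heads of the Control genotype, 11 of 18769 probe sets kept their level from day 0 to day 2 of adult ageing and then fell by day 14. They were chosen on the Control group means: the difference of day 14 minus day 2 had to be -0.6 or lower on the log2 scale, and the difference of day 2 minus day 0 had to be under 0.3 in size. Symbols of several large families (cuticle proteins, cytochrome P450s, glutathione transferases, odorant-binding proteins, respiratory chain subunits and long non-coding RNAs) were to be left out, and 0 probe sets were lost that way. Of the 11, 10 read 1 gene symbol each: CG3348, TpnC41C, Hsc70-1, CG13305, CG14687, CG32523, CG7409, CG4461, SIFa and CG15760. The last, probe set 1630299_at, is annotated with several genes and is called by its probe set ID.

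The series measured total RNA from Drosophila melanogaster heads on 36 Affymetrix arrays, in 12 groups of 3 arrays with 20 heads per RNA sample. Flies developed at 18 °C, were collected newly eclosed, and were frozen at once (day 0) or after 2 or 14 days at 29 °C. Control flies carried GMR-Gal4, a driver active in the eye, and Gal80, a repressor of Gal4 that is sensitive to temperature. The lines called Atro, A66QC and A75QN carried in addition, per the design text, a transgene under the same driver that is off at 18 °C and on at 29 °C: wild-type Atro, or Atro with an expanded polyglutamine (polyQ) tract in the versions A66QC and A75QN. Day 0 of every line is therefore a time before induction, and driver, repressor and temperature shift are shared by all 4 genotypes. Whole heads hold many cells in which an eye driver is not active, and the labels give no sex. They also do not say whether replicates came from separate cultures, so a p-value here speaks of the spread among these arrays and no more. Atro is the fly Atrophin, a transcriptional corepressor encoded by Gug. The Gug probe set averaged 8.98 in Atro, 8.76 in A66QC and 9.02 in A75QN at day 2, against 8.88 in Control, and 8.97, 8.67 and 8.81 at day 14, against 8.97 in Control. At day 2 its arrays in each line overlapped those of Control. At day 14 those of Atro and A75QN overlapped Control, while those of A66QC (8.62 to 8.75) lay under all of Control (8.84 to 9.07). Whether the probe set matches the transgenes was not tested.

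The members span several kinds of protein. Troponin C is the calcium sensor of the thin filament: when calcium binds it, the contractile apparatus of muscle is released to contract. Chaperones of the Hsp70 family and the small heat shock proteins, which share the alpha-crystallin domain, hold unfolded proteins and keep them from aggregating. SIFamide is a neuropeptide made by a few large cells of the fly brain and is known for its part in courtship, feeding and sleep. For the other genes no role is stated here, except that CG32523 encodes a serine protease. These roles were looked up after the members were known.

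**Figure D1:**
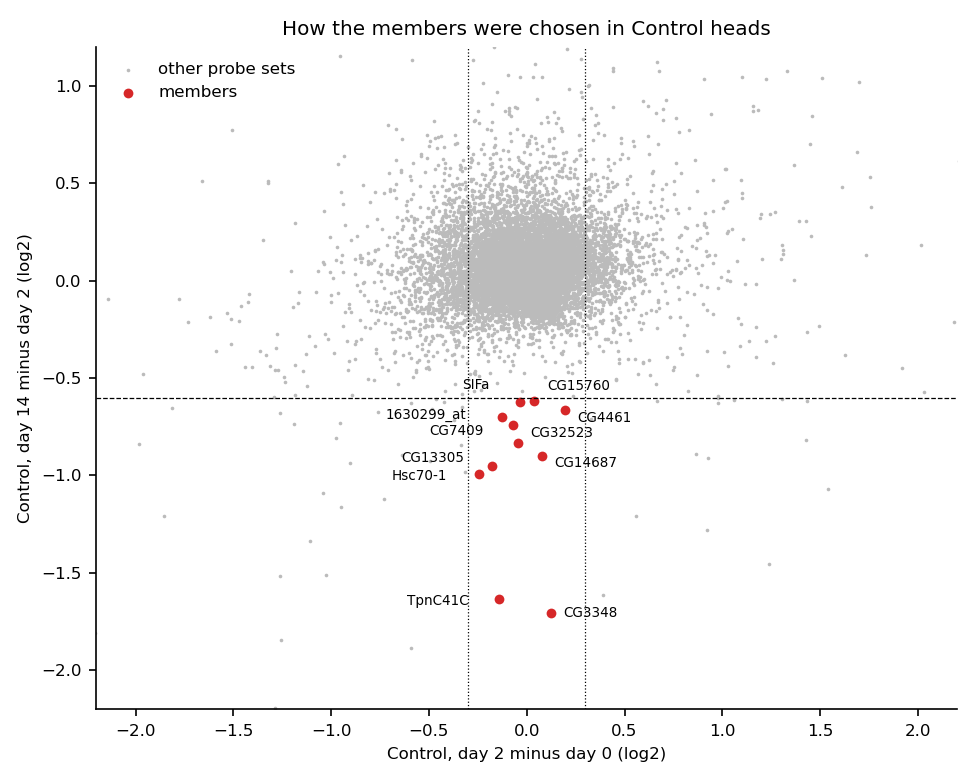
Change of every probe set in Control heads, with day 2 minus day 0 on the x axis and day 14 minus day 2 on the y axis (log2 of group means, 3 arrays a group). Dashed and dotted lines mark the thresholds of -0.6 and ±0.3, red points are the 11 members, and 46 probe sets lie outside the axes; CG3348 and TpnC41C lie apart from the other 9, at -1.71 and -1.63.

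In Control, a late fall of -0.6 or lower was seen in 68 probe sets, of which 37 had already fallen by 0.3 or more by day 2 and 20 had risen by 0.3 or more; the remaining 11 are the members. A rise of 0.6 or more over the same time was seen in 205 probe sets. The plot of Control changes shows the members between both groups of movers. Just inside the late threshold were SIFa (-0.623) and CG15760 (-0.616), and just outside it were CG13071 (-0.592) and AANATL2 (-0.567). Just inside the early threshold were CG4461 (0.196) and Hsc70-1 (-0.245), and just outside it were another Hsc70-1 probe set (-0.315) and Cdc7 (0.329). Since Control arrays chose the members, Control values are a description and carry no test.

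The late fall was also measured in the 3 transgenic lines, whose arrays the choice did not use. From day 2 to day 14, 10 of 11 members fell in Atro (6.83% of all probe sets were called lower), 11 of 11 in A66QC (8.19%) and 10 of 11 in A75QN (7.56%), by limma with Benjamini-Hochberg adjustment over 18769 probe sets at a threshold of 0.05. No member was called higher in any of the 3 lines by limma (0 at an unadjusted p under 0.05), against 13.1% of all probe sets in Atro, 6.93% in A66QC and 8.55% in A75QN. The median late change of the members was -0.98 in Atro, -1.02 in A66QC and -0.93 in A75QN, beside -0.02, -0.0011 and 0.0093 over all probe sets. All 3 lines called 10 members lower, and they called 749 probe sets (3.99%) lower over the whole array. The exception was the serine protease CG32523, which fell in A66QC alone. Every day 14 array lay under every day 2 array for 11 members in Control (11.4% of all probe sets, with the day 2 and day 14 arrays of Control used by the choice), 10 in Atro (15.2%), 11 in A66QC (12.8%) and 10 in A75QN (15.7%). Averaged over the 3 lines, the late change was lowest for TpnC41C (-1.72), CG13305 (-1.41), CG14687 (-1.30) and CG3348 (-1.21), and highest for CG32523 (-0.34), CG15760 (-0.37), SIFa (-0.70) and CG4461 (-0.84). A fall in a head can come from fewer cells of a type or from less RNA per cell, and whole-head arrays cannot tell these apart.

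**Figure D2:**
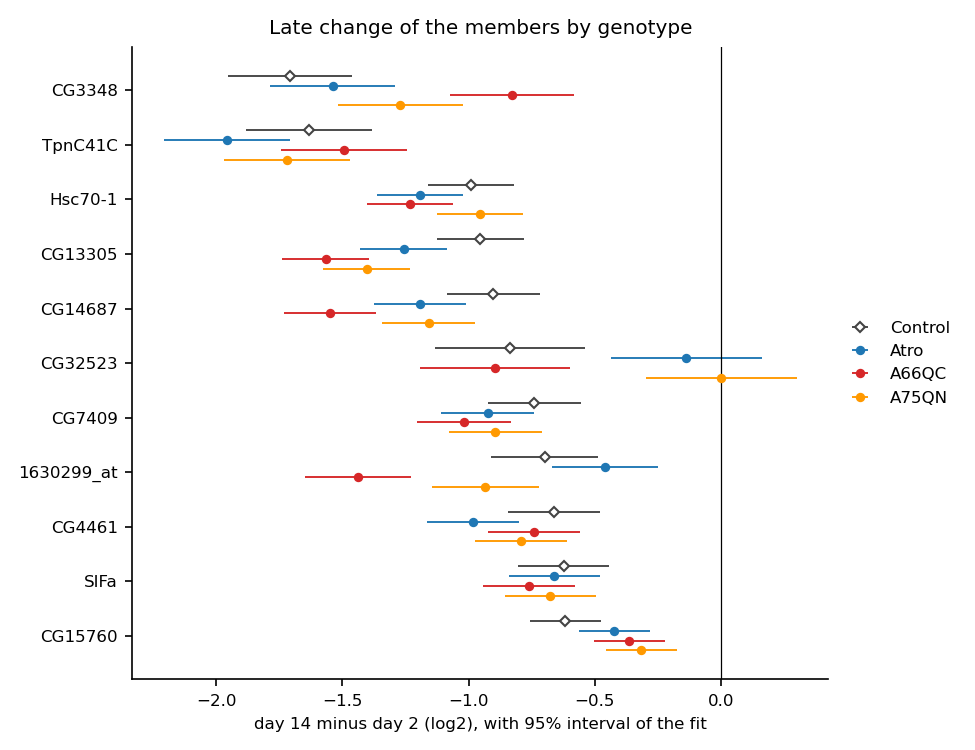
Change of each member from day 2 to day 14 (x axis, log2) in the 4 genotypes, as the fitted difference with its 95% interval (3 arrays at each day, spread pooled over all 36 arrays). Control, drawn with open diamonds, was used to choose the members; in the 3 lines the only intervals that reach 0 belong to CG32523 in Atro and A75QN.

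The course before day 2 was less uniform than the late fall. From day 0 to day 2, while the choice held Control flat, 5 members rose in Atro (6.12% of all probe sets), 5 in A66QC (11.2%) and 6 in A75QN (12.8%). In the same interval 1 member fell in Atro (9.61%), 0 in A66QC (6.85%; 0 at an unadjusted p under 0.05) and 3 in A75QN (6.92%). CG3348, CG13305, CG4461 and 1630299_at rose in all 3 lines. The share of all probe sets that did so was not counted. CG14687 rose in A66QC and A75QN, and CG15760 was called in neither direction in any line. Arrays of Atro at day 0 and day 2 with the same replicate number deviated together, and with that number as a block 7 members were called in Atro in place of 6, since CG15760 passed as well (0.18, adjusted p = 0.0407). The members' median early change was 0.26 in Atro, 0.25 in A66QC and 0.26 in A75QN, beside 0.018, -0.0093 and -0.0022 over all probe sets. The differences of early change between lines and Control were not tested, since the Control side was held flat by the choice. In A75QN the day 0 arrays and the later arrays also differ in their spike-in levels, given further on.

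**Figure D3:**
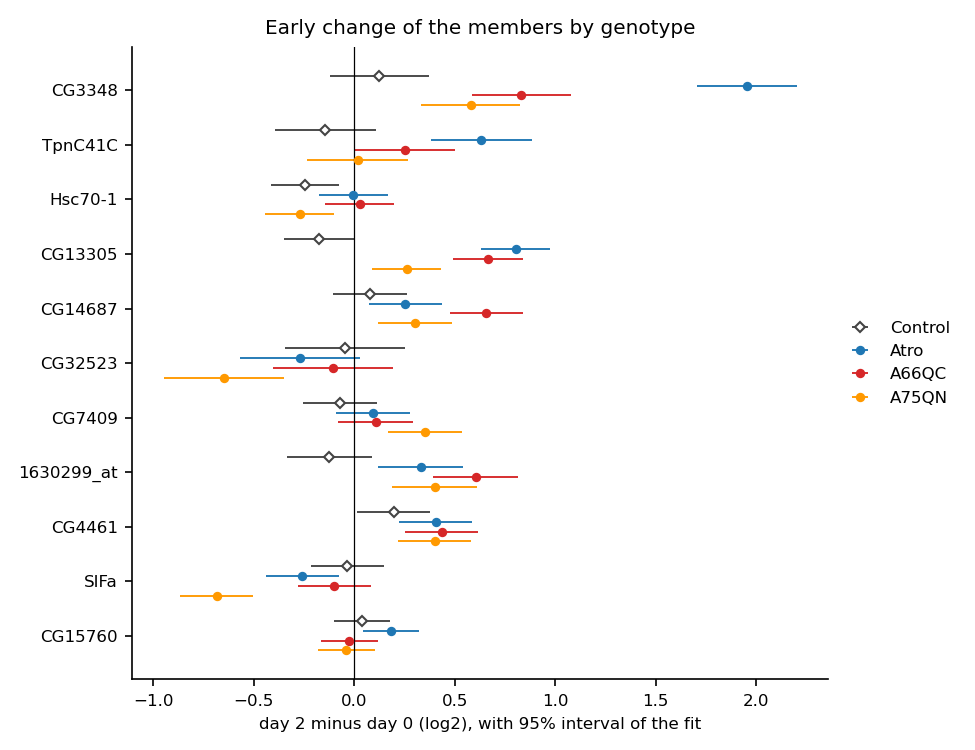
Change of each member from day 0 to day 2 (x axis, log2) in the 4 genotypes, as the fitted difference with its 95% interval (3 arrays at each day). Control, drawn with open diamonds, was held within ±0.3 by the choice; CG3348 in Atro lies farthest to the right, at 1.95, and SIFa in A75QN farthest to the left, at -0.69.

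TpnC41C, a troponin C, had the lowest average late change of the members. In Control its log2 levels were 9.31, 9.99 and 9.41 at day 0, 9.51, 9.23 and 9.54 at day 2, and 7.81, 7.92 and 7.66 at day 14. In Atro they were 8.94, 9.13 and 8.99, then 9.89, 9.46 and 9.60, then 7.80, 7.62 and 7.66. In A66QC they were 8.73, 8.72 and 8.99, then 9.00, 8.99 and 9.20, then 7.66, 7.58 and 7.47. The day 14 arrays lay well under all earlier arrays in each of these genotypes, with no overlap. A75QN had 9.64, 9.82 and 9.74, then 9.82, 9.70 and 9.74, and ended at 8.18, 7.96 and 7.94. Its group means were the highest at days 0 and 2, but its arrays overlapped those of Control at day 0 and of Atro at day 2. From day 2 to day 14 the level fell 3.89-fold in Atro (log2 difference -1.96, SE 0.12, adjusted p = 1.45e-13), 2.82-fold in A66QC (-1.50, adjusted p = 6.79e-11) and 3.30-fold in A75QN (-1.72, adjusted p = 2.31e-12), by limma. Before that it rose by 0.63 in Atro (adjusted p = 0.000288), while its early change was 0.25 in A66QC and 0.02 in A75QN, neither of which passed. At day 14 the 2 polyQ lines differed from Atro by -0.13 and 0.34, and neither difference passed (adjusted p of the second 0.0817).

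Other muscle genes fell too, but in Control they mostly did so earlier. A muscle list (filament proteins, their regulators and calcium handling) held 19 other genes. Of these, 15 fell from day 2 to day 14 in Atro (6.83% of all probe sets), 10 in A66QC (8.19%) and 14 in A75QN (7.56%). None rose in the 3 lines (13.1%, 6.93% and 8.55% of all probe sets). The median changes of the 19 were -0.56, -0.47 and -0.61. In Control 6 of the 19 fell late (3.16% of all probe sets were called lower there), with a median of -0.12. With TpnC41C included, 16 of 20 fell between day 0 and day 2 in Control (11.5% of all probe sets), with a median of -0.84, and 11, 9 and 15 fell in the Atro, A66QC and A75QN lines (9.61%, 6.85% and 6.92%), with medians of -0.36, -0.26 and -0.54. In the same interval 1 of the 20 rose in Atro (6.12% of all probe sets), and that was TpnC41C itself. In A66QC 2 others rose (11.2%), and 0 rose in Control (10.6%) or A75QN (12.8%). The flat early course of TpnC41C in Control was a condition of the choice. A further gene, SERCA, the calcium pump that refills the store of the muscle cell, came nearest to TpnC41C within the list by late change. It changed late by -1.16 in Control, then -1.45 in Atro (adjusted p = 8.12e-13), -1.42 in A66QC (adjusted p = 1.28e-12) and -1.58 in A75QN (adjusted p = 7.96e-14). SERCA was not a member, since its early change in Control was 0.3 or more in size. The mean level of 5 muscle markers (actins, myosin light chains and troponin T) moved with these genes: it went from 10.48 to 9.27 to 8.93 over days 0, 2 and 14 in Control, from 10.42 to 9.87 to 9.13 in Atro, from 10.17 to 9.64 to 9.08 in A66QC and from 10.65 to 9.73 to 9.01 in A75QN. Tracheal markers (4) also fell, from 9.07 to 7.92 to 7.71 in Control, from 9.25 to 8.36 to 7.96 in Atro, from 8.75 to 8.13 to 7.42 in A66QC and from 9.35 to 7.91 to 7.61 in A75QN. From day 2 to day 14 in A75QN, the tracheal marker Gasp went from 9.93 to 8.84 and serp from 7.88 to 7.73. There btl went from 6.25 to 6.23 and verm from 7.57 to 7.63. The part of either cell type in the members' fall was not tested.

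**Figure D4:**
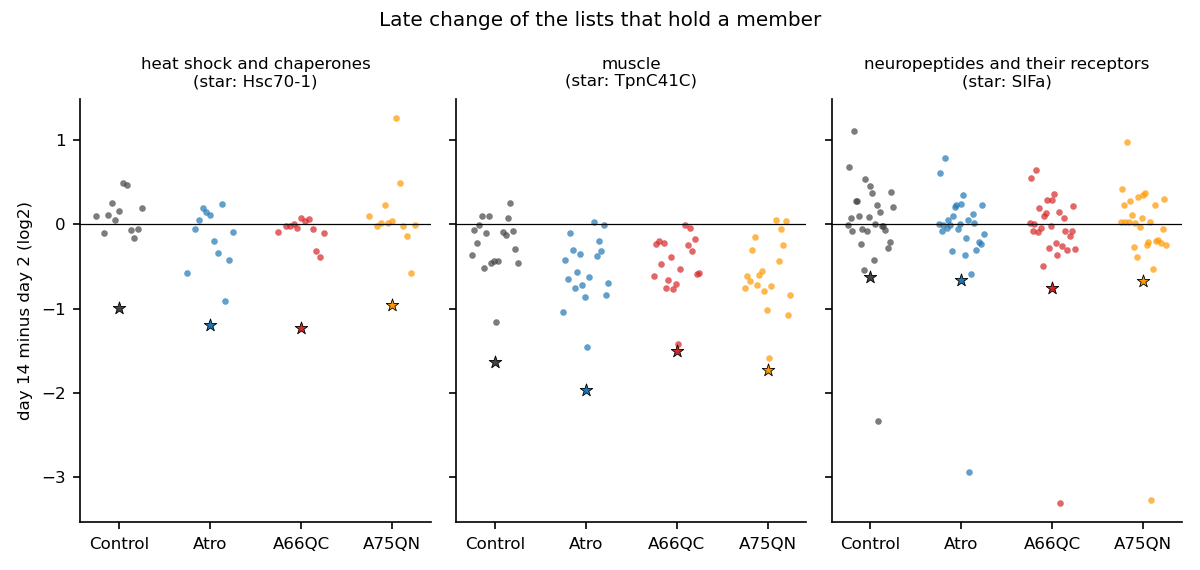
Change from day 2 to day 14 (y axis, log2) of each gene in the 3 gene lists that hold a member, by genotype; points are genes and the star is the member. Hsc70-1 and TpnC41C lie at the low end of their lists in all 4 genotypes, while SIFa lies above 1 gene, Nplp3, in the list of neuropeptides.

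The chaperones Hsc70-1, CG7409 and CG4461 fell in all 3 lines. Hsc70-1 is a constitutive member of the Hsp70 family. Its levels at day 2 were 8.85, 8.65 and 8.89 in Control, 9.07, 8.76 and 8.86 in Atro, 8.79, 8.80 and 9.04 in A66QC, and 8.70, 8.57 and 8.75 in A75QN. At day 14 they were 7.83, 7.90 and 7.69 in Control, 7.74, 7.75 and 7.62 in Atro, 7.68, 7.65 and 7.60 in A66QC, and 7.61, 7.70 and 7.85 in A75QN. The 12 arrays of day 2 lay between 8.57 and 9.07 and those of day 14 between 7.60 and 7.90, with no overlap. The fall was 2.29-fold in Atro (-1.19, SE 0.08, adjusted p = 1.91e-12), 2.35-fold in A66QC (-1.23, adjusted p = 8.62e-13) and 1.94-fold in A75QN (-0.95, adjusted p = 2.89e-10), by limma. At day 14 the differences from Atro were -0.06 in A66QC (95% interval -0.23 to 0.11) and 0.02 in A75QN (-0.15 to 0.19). Its early change was -0.00 in Atro and 0.03 in A66QC, neither of which passed, and it fell by 0.27 in A75QN (adjusted p = 0.0181). A second Hsc70-1 probe set, 1636956_at, missed the early threshold in Control and had late changes of -0.98 (Control), -1.15 (Atro line), -1.23 (A66QC) and -1.01 (A75QN). Another, 1627963_s_at, had smaller late changes of -0.10, -0.34, -0.49 and -0.26 in the same order, so the probe sets of the gene differ in size.

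CG7409 and CG4461 encode small heat shock proteins. CG7409 stood at 11.36, 11.11 and 11.33 at day 2 and 10.60, 10.71 and 10.27 at day 14 in Control, and at 11.59, 11.33 and 11.50, then 10.61, 10.46 and 10.58 in Atro. In A66QC it went from 11.23, 11.40 and 11.49 to 10.40, 10.33 and 10.34, and in A75QN from 11.29, 11.31 and 11.26 to 10.57, 10.34 and 10.27. The day 2 arrays of the 4 genotypes ran from 11.11 to 11.59 and the day 14 arrays from 10.27 to 10.71. The fall was 1.90-fold in Atro (-0.92, SE 0.09, adjusted p = 3.06e-09), 2.02-fold in A66QC (-1.02, adjusted p = 4.56e-10) and 1.86-fold in A75QN (-0.89, adjusted p = 6.88e-09). Its early change passed in A75QN alone, a rise of 0.35 (adjusted p = 0.00454) from the lowest day 0 levels of the 4 genotypes, 10.88, 11.00 and 10.93. CG4461 rose before it fell in each line. It went from 9.49, 9.64 and 9.67 at day 0 to 10.13, 9.92 and 9.97 at day 2 and 9.02, 8.95 and 9.11 at day 14 in Atro, from 9.43, 9.19 and 9.32 to 9.67, 9.65 and 9.92 and then 9.02, 9.00 and 9.01 in A66QC, and from 9.37, 9.62 and 9.66 to 10.00, 9.85 and 10.00 and then 9.27, 9.04 and 9.17 in A75QN. Day 2 arrays were the highest and day 14 arrays the lowest in each line. The early rises of CG4461 were 0.41, 0.44 and 0.40 (adjusted p = 0.00125, 0.000508 and 0.00119), and the late falls were -0.98, -0.74 and -0.79 (adjusted p = 6.45e-10, 2.19e-07 and 6.14e-08), in the order Atro, A66QC and A75QN.

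Few of the other listed chaperones were called lower late. A list of heat shock proteins and chaperones, which does not hold CG7409 or CG4461, held 12 other genes. Of these, 3 fell late in Atro (6.83% of all probe sets), 1 in A66QC (8.19%) and 1 in A75QN (7.56%). In the lines 1 rose in Atro (13.1%), 0 in A66QC (6.93%) and 1 in A75QN (8.55%). In Control 0 fell (3.16%) and 1 rose (10.3%). The medians of these 12 were -0.07, -0.03 and 0.02 in the lines and 0.11 in Control. The small heat shock protein l(2)efl fell in all 3 lines, by -0.42, -0.39 and -0.58 (adjusted p = 0.00405, 0.00974 and 0.000168). Hsp68 fell in Atro (-0.91, adjusted p = 7.43e-06), with -0.32 in A66QC and -0.14 in A75QN, which did not pass. DnaJ-1, a co-chaperone of Hsp70, fell in Atro (-0.58, adjusted p = 2.78e-07) and had -0.09 and 0.10 in the polyQ lines, which did not pass. Hsp26 rose in A75QN (1.26, adjusted p = 0.00288), with -0.19 in Atro and 0.04 in A66QC.

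SIFa, the gene of the neuropeptide SIFamide, fell in all 3 lines. Its day 2 levels were 7.88, 7.70 and 7.91 in Control, 7.75, 7.65 and 7.67 in Atro, 7.67, 7.75 and 7.81 in A66QC, and 7.74, 7.77 and 7.80 in A75QN. Its day 14 levels were 7.21, 7.21 and 7.20 in Control, 7.04, 7.09 and 6.95 in Atro, 7.01, 6.93 and 7.00 in A66QC, and 7.09, 7.00 and 7.18 in A75QN. No day 14 array overlapped a day 2 array in any genotype. The falls were -0.66 in Atro (SE 0.09, adjusted p = 1.13e-06), -0.76 in A66QC (adjusted p = 1.13e-07) and -0.68 in A75QN (adjusted p = 9.53e-07), between 1.58-fold and 1.69-fold. A75QN began higher, at 8.51, 8.46 and 8.38 on day 0, and had already fallen by 0.69 at day 2 (adjusted p = 5.3e-07); Atro fell by 0.26 over that time (adjusted p = 0.0443). At day 14 the differences from Atro were -0.05 in A66QC (95% interval -0.23 to 0.13) and 0.06 in A75QN (-0.12 to 0.24). Neuropeptide genes moved in both directions: of the 28 other genes of the list of neuropeptides and receptors, 6, 8 and 6 fell late (6.83%, 8.19% and 7.56% of all probe sets) and 4, 5 and 6 rose (13.1%, 6.93% and 8.55%) in Atro, A66QC and A75QN, with medians of -0.0038, -0.0291 and 0.0249. Nplp3 fell by -2.93, -3.31 and -3.27 (adjusted p = 1.35e-21, 3.86e-23 and 5.21e-23), while Crz, the gene of corazonin, rose by 0.79, 0.64 and 0.98 (adjusted p = 7.15e-10, 6.1e-08 and 5.81e-12). The mean level of 5 neuron markers fell late in the lines. It went from 8.28 at day 2 to 8.08 at day 14 in Atro, from 8.19 to 7.91 in A66QC and from 8.39 to 8.13 in A75QN. In Control, where SIFa also changed by -0.62, the marker mean went from 8.25 to 8.28. In a neuron and synapse list of 30 genes, 14, 21 and 18 fell late in Atro, A66QC and A75QN and 1 in Control. Over all probe sets 6.83%, 8.19% and 7.56% fell in the lines and 3.16% in Control. The medians of the list were -0.30, -0.37 and -0.30 in the lines and 0.03 in Control. Of 23 phototransduction and photoreceptor genes, 10, 11 and 14 fell in the lines and 3 in Control, while 2, 0 and 2 rose in the lines and 5 in Control. Over all probe sets 13.1%, 6.93% and 8.55% rose in the lines and 10.3% in Control. The mean of 3 photoreceptor markers ran from 12.30 to 12.59 over the 12 groups. The part of these genes or cells in the fall of SIFa was not tested.

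CG32523, the serine protease, was the member that fell late in 1 line alone. In Control it went from 10.66, 10.58 and 10.51 at day 2 to 10.01, 9.98 and 9.24 at day 14, where 1 array was far lower than the other two. In A66QC it went from 10.40, 10.34 and 10.50 to 9.23, 9.62 and 9.71, a 1.86-fold fall (-0.90, SE 0.15, adjusted p = 3.15e-05). In Atro it went from 10.39, 10.14 and 10.45 to 10.18, 10.01 and 10.39, and the arrays of the 2 days overlapped (-0.14, 95% interval shown in the plot of late changes, adjusted p = 0.586). A75QN was the lowest genotype throughout: 9.47, 9.45 and 9.64 at day 0, 8.81, 8.97 and 8.83 at day 2, and 8.99, 9.06 and 8.57 at day 14. It fell before day 2 in that line (-0.65, adjusted p = 0.0013) and had a late change of 0.00 (adjusted p = 0.996). At day 14 CG32523 was lower than in Atro by 0.67 in A66QC (log2 difference -0.67, adjusted p = 0.00328) and by more in A75QN (-1.32, adjusted p = 7.89e-08). The difference of the late change, A66QC minus Atro, was -0.76 with a 95% interval of -1.18 to -0.34 and did not pass the threshold over all probe sets (adjusted p = 0.0608).

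CG3348 had the largest Control fall, 3.27-fold, and rose in every line before it fell. In Control it stood at 9.70, 9.98 and 9.90 at day 0, 9.92, 9.89 and 10.14 at day 2, and 8.11, 8.24 and 8.47 at day 14. In Atro it began low, at 7.77, 8.20 and 7.71, reached 9.91, 9.58 and 10.05 at day 2, and came back to 8.31, 8.36 and 8.25. The Control and Atro arrays were thus far apart before induction and overlapped at days 2 and 14. In A66QC it went from 7.84, 7.97 and 7.82 to 8.91, 8.48 and 8.74 and back to 8.00, 7.89 and 7.76, and in A75QN from 8.36, 8.36 and 8.25 to 9.09, 8.77 and 8.86 and then 7.76, 7.61 and 7.53. All 9 day 0 arrays of the lines lay below all 3 of Control. The early rise was 3.88-fold in Atro (1.95, SE 0.12, adjusted p = 2.0e-13), 1.78-fold in A66QC (0.83, adjusted p = 4.6e-06) and 1.50-fold in A75QN (0.58, adjusted p = 0.000549). The late fall was 2.90-fold in Atro (-1.54, adjusted p = 2.72e-11), 1.78-fold in A66QC (-0.83, adjusted p = 5.61e-06) and 2.41-fold in A75QN (-1.27, adjusted p = 1.97e-09). Day 14 minus day 0 came to 0.42 in Atro and 0.00 in A66QC, against -0.69 in A75QN and -1.58 in Control.

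CG13305 and CG14687 had among the lowest late changes after TpnC41C. CG13305 went from 9.11, 8.93 and 9.28 to 7.81, 7.83 and 7.92 in Atro, from 8.89, 8.97 and 9.07 to 7.43, 7.37 and 7.43 in A66QC, and from 8.38, 8.36 and 8.32 to 7.05, 6.90 and 6.92 in A75QN; Control went from 8.58, 8.55 and 8.60 to 7.57, 7.80 and 7.50. At day 14 all arrays of Atro lay above all of Control, all of A66QC below them, and all of A75QN lowest. The late falls were 2.39-fold in Atro (-1.26, SE 0.08, adjusted p = 7.81e-13), 2.96-fold in A66QC (-1.57, adjusted p = 3.02e-15) and 2.65-fold in A75QN (-1.40, adjusted p = 4.33e-14), after early rises of 0.80, 0.67 and 0.26 (adjusted p = 1.69e-08, 4.81e-07 and 0.0261). CG14687 went from 11.76, 11.52 and 11.73 to 10.53, 10.43 and 10.47 in Atro, from 11.86, 11.94 and 12.12 to 10.46, 10.38 and 10.44 in A66QC, from 11.58, 11.50 and 11.48 to 10.50, 10.28 and 10.30 in A75QN, and from 11.61, 11.45 and 11.55 to 10.66, 10.80 and 10.44 in Control. A66QC was highest at day 2 and the genotypes overlapped at day 14. The falls were -1.19 (SE 0.09, adjusted p = 1.01e-11), -1.55 (adjusted p = 1.76e-14) and -1.16 (adjusted p = 1.74e-11) in Atro, A66QC and A75QN. CG14687 had risen early by 0.66 in A66QC (adjusted p = 1.62e-06) and 0.30 in A75QN (adjusted p = 0.0143), while the 0.26 of Atro did not pass (adjusted p = 0.0507).

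The probe set 1630299_at had the smallest adjusted p among members for a difference between a polyQ line and Atro in the size of the late fall. It went from 12.15, 11.83 and 12.00 to 11.62, 11.44 and 11.54 in Atro, from 12.36, 12.19 and 12.54 to 11.04, 10.80 and 10.93 in A66QC, and from 11.84, 11.70 and 11.89 to 11.07, 10.65 and 10.90 in A75QN. In Control it went from 11.88, 11.70 and 11.89 to 10.96, 11.09 and 11.33. A66QC thus started highest and ended, with A75QN, below every Atro array. The fall was 1.37-fold in Atro (-0.46, SE 0.10, adjusted p = 0.00132), 2.71-fold in A66QC (-1.44, adjusted p = 3.26e-12) and 1.91-fold in A75QN (-0.93, adjusted p = 4.36e-08). It had risen early by 0.33, 0.61 and 0.40 in the same lines (adjusted p = 0.0244, 5.16e-05 and 0.00477).

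CG15760 had the smallest calls. It went from 7.02, 6.99 and 6.98 to 6.55, 6.56 and 6.62 in Atro, from 6.63, 6.67 and 6.89 to 6.30, 6.37 and 6.43 in A66QC, from 6.82, 6.93 and 6.98 to 6.60, 6.54 and 6.64 in A75QN, and from 7.27, 7.03 and 7.11 to 6.45, 6.47 and 6.65 in Control. Every genotype kept its days apart, at levels close to the array medians of 6.34 to 6.403. The falls were -0.42 (SE 0.07, adjusted p = 2.43e-05), -0.36 (adjusted p = 0.000236) and -0.32 (adjusted p = 0.00123) in Atro, A66QC and A75QN.

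**Figure D5:**
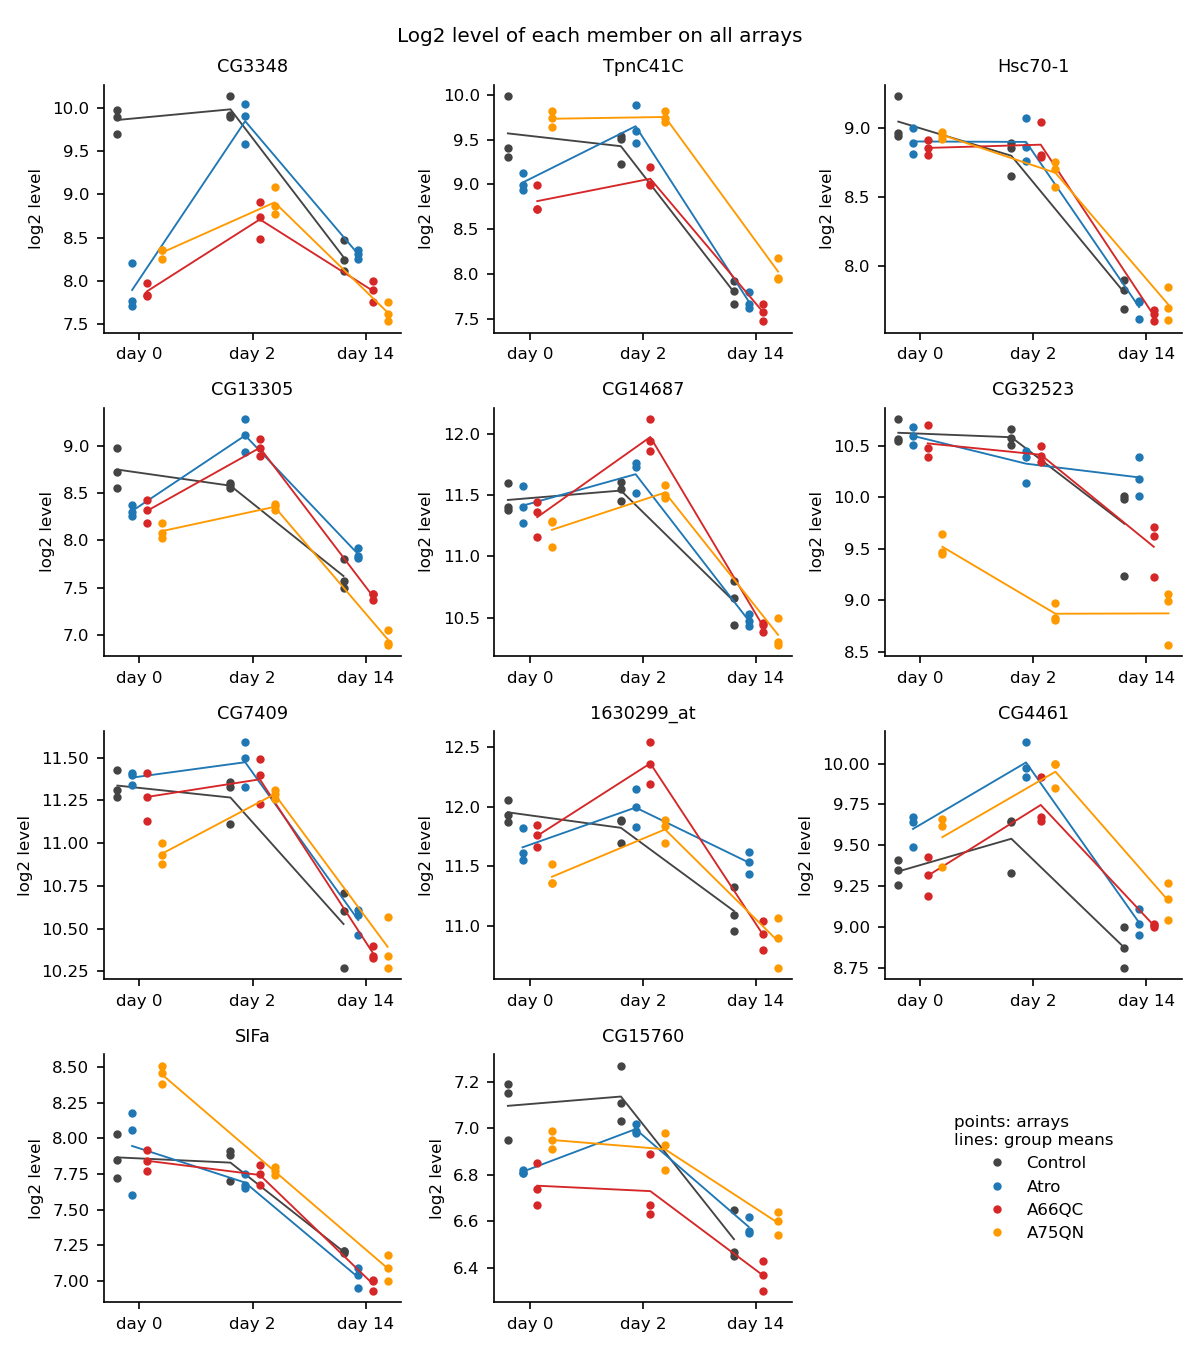
Log2 level (y axis) of each of the 11 members on all 36 arrays by day (x axis, days not to scale); points are arrays, lines join group means of 3 arrays, and colours are the 4 genotypes. The mean at day 14 is the lowest of the 3 days except for CG3348 in Atro and A66QC and CG32523 in A75QN.

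Each polyQ line was compared with the line of the wild-type Atro transgene. At day 14, 4 of 11 members were lower in A66QC than in Atro (5.16% of all probe sets) and 0 higher (0.698%), and 4 were lower in A75QN (6.53%) and 0 higher (2.77%), by limma at the same threshold. At an unadjusted p under 0.05, 0 members were higher in A66QC and 1, TpnC41C, in A75QN. The 4 were CG3348, CG13305, CG32523 and 1630299_at in both lines, which share the Atro arrays as their reference. CG3348 differed by -0.43 in A66QC (adjusted p = 0.0293) and -0.68 in A75QN (adjusted p = 0.000224). CG13305 differed by -0.45 (adjusted p = 0.000736) and -0.90 (adjusted p = 3.22e-09), and 1630299_at by -0.61 (adjusted p = 0.000165) and -0.66 (adjusted p = 3.97e-05). Some of these differences were present before induction: CG32523 averaged 9.52 in A75QN at day 0, against 10.60 in Atro and 10.52 in A66QC. At the same time CG13305 averaged 8.10 in A75QN and 8.31 in both Atro and A66QC, and 1630299_at 11.41 in A75QN, 11.66 in Atro and 11.76 in A66QC. CG3348, in contrast, averaged 8.32 in A75QN, 7.89 in Atro and 7.88 in A66QC. The call of CG3348 in A66QC rested on 1 array: without replicate 3 of A66QC at day 14 the difference was -0.36 (adjusted p = 0.131). The median over the members was -0.19 in A66QC and -0.11 in A75QN, beside 0.0043 and 0.023 over all probe sets. For the other 7 members neither line passed in this fit. Under the other processing settings 3 to 6 members were called in A66QC and 4 to 6 in A75QN. The widest of their 95% intervals were those of TpnC41C, which ran from -0.37 to 0.12 in A66QC and from 0.09 to 0.59 in A75QN.

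A lower level at day 14 can go with a larger late fall or with a lower start, so the change itself was compared. The late fall was larger in A66QC than in Atro for 1 member, 1630299_at (1.11% of all probe sets; difference -0.98, SE 0.15, adjusted p = 6.63e-05). It was smaller for 1 member, CG3348 (0.245%; difference 0.71, SE 0.17, adjusted p = 0.0240), whose early rise was 0.83 in A66QC and 1.95 in Atro. The second call was lost when any 1 of 7 arrays was left out, with an adjusted p of 0.113 without replicate 2 of A66QC at day 2. Between A75QN and Atro, limma called 0 members in either direction (1.2% of all probe sets lower and 0.4% higher), and 1 member had an unadjusted p under 0.05: 1630299_at, at -0.48 (95% interval -0.77 to -0.18, adjusted p = 0.119). CG13305 was the lowest in A75QN at day 14 while its late change was near that of Atro (difference -0.15, 95% interval -0.39 to 0.10).

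Against Control, whose arrays chose the members, values are given without a test. The late fall was larger than in Control for 7 of 11 members in Atro, 8 in A66QC and 7 in A75QN. The share of all probe sets with a larger fall than in Control was not counted. These counts therefore show nothing particular to the members. From day 0 to day 14 the members' changes ran from -1.78 to -0.47 in Control, from -1.33 to 0.42 in Atro, from -1.25 to 0.00 in A66QC and from -1.70 to -0.35 in A75QN. No pair of the 10 members with 1 gene symbol lies side by side in the annotation: the nearest, CG13305 and CG4461, have 86 protein-coding genes between them.

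Over the whole series, array medians ran from 6.34 to 6.403 and replicates correlated at 0.9952 to 0.9985 over probe sets. Poly-A spike-in probe sets (24), which read RNA added during labelling, averaged 13.16 to 13.40 on the 6 arrays of A75QN at days 2 and 14 and 10.17 to 10.83 on the other 30. The early change of A75QN and its differences from Atro therefore cross this step, and it cannot be told apart from line and day there; the late change of A75QN lies within it. The GAPDH signal at the 3′ end minus that at the 5′ end, a sign of RNA integrity, was 1.82 ± 0.056 at day 2 and 1.81 ± 0.071 at day 14 in Control (SD, n = 3), 1.84 ± 0.10 and 2.10 ± 0.077 in Atro, 1.90 ± 0.14 and 2.16 ± 0.033 in A66QC, and 1.77 ± 0.087 and 1.99 ± 0.16 in A75QN. It was thus higher at day 14 than at day 2 in each line, and its part in the members' fall was not tested. Other markers also moved from day 2 to day 14. Epidermal markers (4) went from 7.31 to 7.20 in Control, 7.41 to 7.10 in Atro, 7.31 to 7.03 in A66QC and 7.42 to 7.18 in A75QN. Haemocyte markers (4) went up in each genotype, from 7.41 to 7.69, 7.38 to 7.65, 7.38 to 7.71 and 7.36 to 7.66 in the same order. Glial markers (4) went from 10.30 to 10.38, 10.38 to 10.35, 10.35 to 10.01 and 10.44 to 10.22, and fat body markers (6) from 11.37 to 11.26, 11.49 to 11.55, 11.43 to 11.60 and 11.56 to 11.01. The markers within the fat body and glial lists did not move alike. Lsp2 went from 9.10 to 7.82 in Control, where the other fat body markers all rose. In A75QN it went from 10.45 to 7.27, while Yp2 and Yp3 fell slightly and the rest rose. Among glial markers, Gs2 and moody fell in A66QC and A75QN, while repo and alrm changed little. The part of all these markers in the members' fall was not tested. Markers of germline and male glands (6) and of gut (3) lay under the lowest array median in every group.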

How the data were processed

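The authors deposited log2 expression values per probe set for 36 one-colour Affymetrix arrays. The submitters' processing notes name R 2.11.0, and no header or label states the background correction or normalization, so the values were used as deposited. The 183 control probe sets were set aside, which left 18769. Gene names come from the platform annotation and were updated through gene IDs against RefSeq (13544 matched): 13647 probe sets read 1 symbol, 402 several and 4720 none.

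Differences were tested with limma 3.58.1 in R 4.3.3, in 1 model with a mean for each of the 12 groups (24 residual and 6.49 prior degrees of freedom), with Benjamini-Hochberg adjustment over all 18769 probe sets of each contrast and a threshold of 0.05. Each contrast compares groups of 3 arrays, and this number limits the precision. The procedure was tested on simulated data. For the members, 10 contrasts among the lines were read. The genes named are the members, the probe sets next to each threshold and the genes of lists that hold a member. Members and lists were chosen with earlier results of these data known, and roles beyond the lists were assigned after the values were seen. Alternatives were quantile and cyclic loess normalization, a filter on dim probe sets, array weights, a replicate block, leaving out 6 arrays of outlying spread and leaving out each array in turn. The deviations of same-numbered arrays from their group means correlated at over 0.1 in all 3 pairs for Atro at days 0 and 2 (r from 0.15 to 0.47) and in no other comparison, so the blocked value is given for that one alone. Over all comparisons r ran from -0.60 to 0.57. Promoter and protein sequences were not analysed here.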

Additional observations from a re-analysis of the deposited data

Results flagged for a closer look

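The late change of 2 members differed between A66QC and Atro by the test of the difference itself. For 1630299_at the fall was larger in A66QC, by a log2 difference of -0.98, and for CG3348 it was smaller, by 0.711. In the data outside the comparisons, poly-A spike-in probe sets were higher on the 6 arrays of A75QN at days 2 and 14 than on the other 30 arrays, by 2.766 on the log2 scale.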

How the results depend on the processing

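The count of members called in the late change was 10 to 11 in Atro, 11 in A66QC and 10 in A75QN under the 6 alternatives and when each array was left out. Early calls were less firm: in Atro 6 in all, 7 to 9 under the alternatives and 4 to 6 with an array left out; in A75QN 9, 8 to 9 and 7 to 9. The difference of the late change, A66QC minus Atro, had 2 calls, and between 1 and 3 with an array left out. The same difference for A75QN had 0 calls, 1 with cyclic loess, 2 with array weights (whose estimation stopped before it converged), 1 with the replicate block, and 0 to 1 with an array left out; the cause was not tested. With the replicate number as a block, the other calls numbered 10, 11 and 10 for the late change, 7, 5 and 9 for the early change, and 5 and 4 for the polyQ lines against Atro at day 14. At day 14 against Atro, 3 to 6 members were called in A66QC and 4 to 6 in A75QN under the alternatives. CG3348 in A66QC against Atro at day 14 was lost with quantile normalization (-0.30, adjusted p = 0.177) and cyclic loess (-0.29, adjusted p = 0.193). No value changed its sign past the threshold. The choice itself is less stable. Its numeric thresholds, applied here without leaving out any symbols, gave 19 probe sets after quantile normalization and 20 after cyclic loess. All 11 members were among them each time. Without 1 Control array the thresholds gave 10 to 19 probe sets, where SIFa, CG15760 and CG32523 could drop out and the other 8 members did not.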
